A study of Homo sapiens with 12 samples.

Results

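Interferon-stimulated genes (ISGs) and genes of the class I antigen presentation pathway were followed in KP4 cells, a human cell line from pancreatic ductal carcinoma, after inhibition of complex I and of NAD salvage. The genes were picked by name, from known roles in the interferon response, but with earlier results of these data known. The list holds 39 genes, all of which were found in the deposited table of 36601 genes. Of these, 36 had a mean of at least 10 normalized counts over the 12 libraries and are called measured members below, against 15376 genes tested in all. IFITM1, IFITM2 and BST2 lay under that limit, with means of 8.24, 6.15 and 3.40 normalized counts, and were not measured. A normalized count is the number of read pairs of a gene divided by the size factor of its library.

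All cells were KP4 cells labelled as wild type and received for 24 h one of 4 treatments: DMSO as the vehicle, 10 mM metformin (Met), 5 nM FK866 (FK), or 10 mM metformin with 5 nM FK866 (Met+FK). Metformin, a biguanide used against diabetes, inhibits complex I of the mitochondrial electron transport chain, and FK866 inhibits NAMPT, the enzyme that remakes NAD+ from nicotinamide. Total RNA depleted of ribosomal RNA was sequenced in 3 libraries per treatment. The labels number them as replicates but do not say whether they came from separate cultures, so p-values measure the spread between these libraries, which may be technical.

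Interferons are secreted proteins that cells make when sensors such as RIG-I (DDX58), MDA5 (IFIH1) or cGAS meet foreign or misplaced nucleic acid. They bind surface receptors, the kinases JAK1 and TYK2 then activate transcription factors, among them STAT2, which acts with IRF9 at the interferon-stimulated response element (ISRE) before ISGs. The response to interferon gamma runs through another element, the gamma-activated site (GAS). The products block viral replication, mark proteins with ISG15, or raise the display of peptides on class I molecules, and many epithelial tumor lines keep a low level of these transcripts without added interferon.

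Libraries held between 30667735 and 41052203 read pairs in genes. Of the 8 epithelial markers of pancreatic ducts that were looked up, 7 were measured, with KRT18 at a mean of 13174 and SOX9 at 4320 normalized counts, while EPCAM averaged 8.93 and KRT19 33.7. The T cell, B cell and natural killer cell genes CD3D, CD3E, MS4A1 and NKG7 averaged at most 0.0845 normalized counts. Of 10 leukocyte markers, 3 (PTPRC, ITGAM and CD68) passed the limit, and the summed level of the list lay between 1140 and 1278 in DMSO, 942 and 995 in Met, 976 and 1054 in FK, and 970 and 1017 in Met+FK libraries. The ductal list summed to between 25327 and 26266 in DMSO, 16512 and 19694 in Met, 19378 and 22878 in FK, and 16238 and 19672 in Met+FK libraries. Of 6 fibroblast and endothelial markers 3 were measured, and that list summed to between 200 and 284 in DMSO, 90.7 and 124 in Met, 302 and 391 in FK, and 88.8 and 134 in Met+FK libraries. The ductal sum is carried by KRT18. Of the 7 measured ductal genes 3 had a positive and 4 a negative log2 fold change in Met, and CDH1 (E-cadherin) rose (1.07, limma adjusted p = 0.000831). The ductal and leukocyte sums were thus lower in every treated library than in any DMSO library, and the part of these lists in the results below was not tested. Since the samples are bulk RNA, fewer cells with a transcript and less RNA per cell cannot be told apart.

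The regions before 6 members are shown, all past the thresholds given below in Met against DMSO. Of the other members past them there, OASL, USP18 and IFIT2 had no matched RefSeq promoter, and OAS1 is not shown. Each line gives the 150 bases before the RefSeq transcription start (GRCh38.p14), 5′ to 3′ on the strand of the gene. In IRF1, which has no ISRE match, capitals mark the GAS core TTCNNNGAA. In the other 5 they mark the ISRE core, searched as GAAA, any pair of bases and GAAA again, on either strand. In ISG15, adjoining matches share bases.
IRF1 (chr5:132490774-132490923, minus strand): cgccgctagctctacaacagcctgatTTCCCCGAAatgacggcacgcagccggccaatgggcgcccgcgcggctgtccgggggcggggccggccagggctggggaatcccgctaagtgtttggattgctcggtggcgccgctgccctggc
IFIT1 (chr10:89392473-89392622, plus strand): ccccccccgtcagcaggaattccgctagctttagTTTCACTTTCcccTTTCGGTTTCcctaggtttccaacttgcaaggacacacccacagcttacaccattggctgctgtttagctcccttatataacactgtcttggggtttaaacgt
OAS3 (chr12:112938324-112938473, plus strand): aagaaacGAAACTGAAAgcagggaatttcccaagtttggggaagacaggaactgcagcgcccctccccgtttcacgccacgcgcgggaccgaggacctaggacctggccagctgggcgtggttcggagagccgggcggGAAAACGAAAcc
ISG15 (chr1:1013347-1013496, plus strand): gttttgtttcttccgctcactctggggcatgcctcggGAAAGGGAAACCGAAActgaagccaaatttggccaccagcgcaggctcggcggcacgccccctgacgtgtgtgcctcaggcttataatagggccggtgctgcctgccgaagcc
IFITM3 (chr11:320861-321010, minus strand): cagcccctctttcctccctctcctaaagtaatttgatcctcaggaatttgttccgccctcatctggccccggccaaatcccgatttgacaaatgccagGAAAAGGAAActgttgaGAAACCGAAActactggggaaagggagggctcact
DDX60 (chr4:168318753-168318902, minus strand): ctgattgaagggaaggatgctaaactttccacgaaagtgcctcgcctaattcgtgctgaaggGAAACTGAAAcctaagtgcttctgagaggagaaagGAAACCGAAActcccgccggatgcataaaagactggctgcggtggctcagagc

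In order to see how the gene set responded as a whole, each treatment was compared with DMSO, and Met+FK with each single drug. A gene was called when limma's Benjamini-Hochberg adjusted p over all 15376 genes was under 0.05 and the fold change over 1.5. With metformin alone, 8 of the 36 measured members fell (22.2%, against 10.2% of all genes tested) and 2 rose (5.56%, against 12.8%). The 8 were IRF1, IFIT1, OAS1, OAS3, OASL, USP18, ISG15 and IFITM3, and the 2 were DDX60 and IFIT2. With both drugs, 9 members fell (25%, against 11.3% of all genes) and 1 rose (2.78%, against 13.7%). With FK866 alone, none fell (0.754% of all genes did), and DDX60 was the 1 member that rose (2.73% of all genes did). The median log2 fold change of the members was −0.16 in Met, −0.13 in FK and −0.24 in Met+FK, each against DMSO, beside medians of 0.012, −0.016 and 0.014 over all genes tested. Met and Met+FK were set against the same DMSO libraries, so these counts share their controls. The list was chosen with earlier results of these data known, so its shares beside those of all genes are descriptive.

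**Figure D1:**
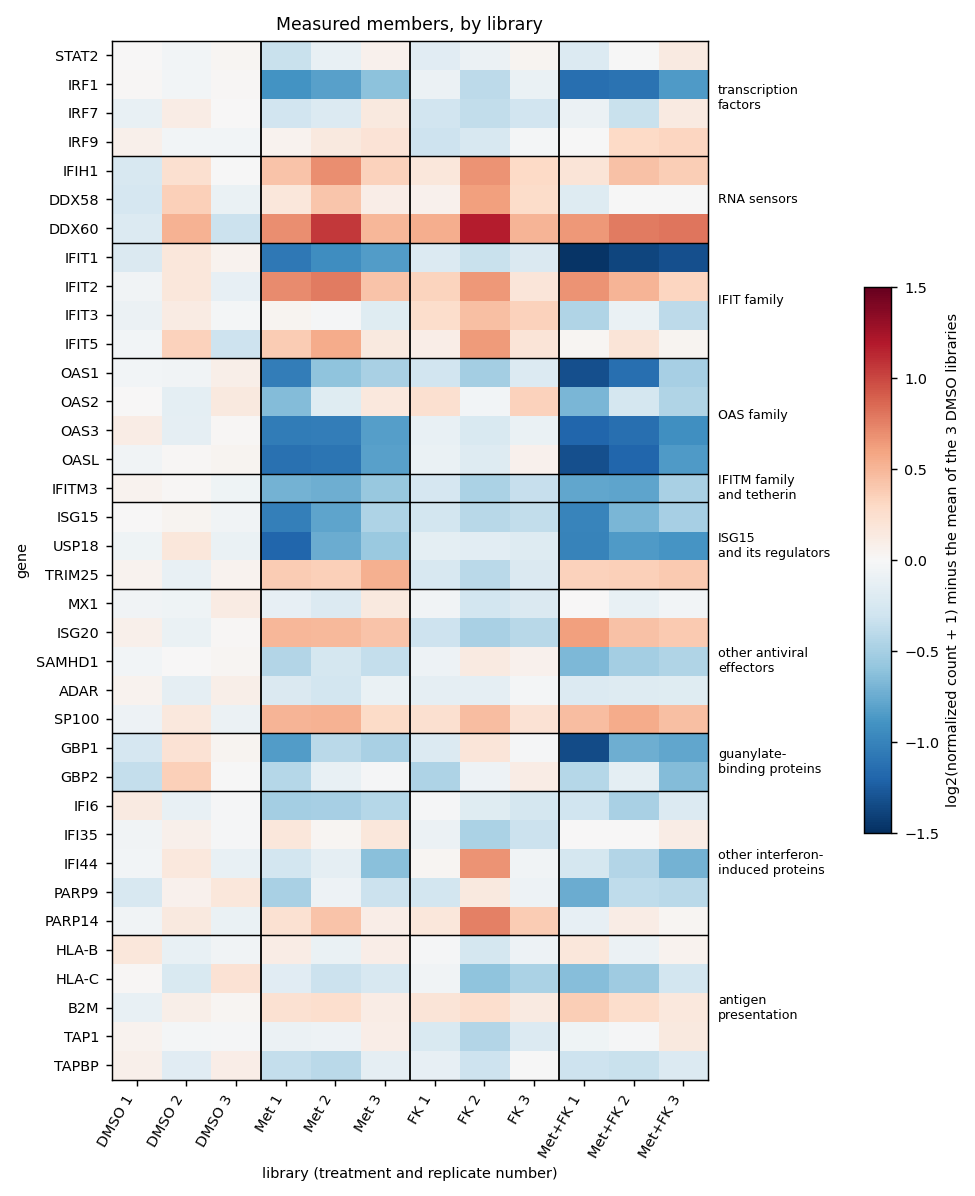
Each row is a measured member and each column a library, grouped by treatment, and the color gives log2(normalized count + 1) minus the mean of the 3 DMSO libraries of that gene. IRF1, IFIT1, OAS1, OAS3, OASL, USP18, ISG15 and IFITM3 are blue in all Met and Met+FK libraries, DDX60 is red in all treated libraries, and HLA-B and MX1 stay pale throughout.

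Counted by overlap alone, 12 members had all 3 Met libraries below all 3 DMSO libraries (29.4% of all genes did) and 6 had them all above (27.5% of all genes). For FK these counts were 10 below (21.6% of all genes) and 5 above (17.2%). For Met+FK they were 18 below (30.4%) and 6 above (30.5%). By the adjusted p alone, 13 members were lower in Met (25.9% of all genes were) and 7 higher (24.9%), and in Met+FK 17 were lower (26.1%) and 6 higher (26.1%).

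Among the transcription factors of the response, IRF1 fell, while STAT2, IRF7 and IRF9 did not pass the test in Met. IRF1 (ENSG00000125347, chr5:132481609-132490777, minus strand) encodes an activator of class I and other interferon genes and is itself induced by interferon. It had 3775, 3635 and 3793 normalized counts in DMSO, 1997, 2123 and 2437 in Met, 3510, 2834 and 3484 in FK, and 1698, 1729 and 2074 in Met+FK. All Met and Met+FK libraries lay below all DMSO and FK libraries, and FK lay below DMSO without overlap but by little. The log2 fold change against DMSO was −0.78 ± 0.10 (SE, n = 3 per group) in Met (limma adjusted p = 2.68e-05), −0.20 ± 0.10 in FK (adjusted p = 0.161) and −1.03 ± 0.10 in Met+FK (adjusted p = 1.42e-06). An antisense gene, C5orf56, overlaps IRF1, and without a stated strand setting their reads cannot be told apart. C5orf56 averaged 275 normalized counts against 2757 for IRF1, and its own log2 fold change in Met was −0.67 (adjusted p = 0.00272).

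STAT2 and IRF9, subunits of the ISGF3 complex, had log2 fold changes of −0.12 ± 0.11 and 0.13 ± 0.11 in Met against DMSO, with limma adjusted p-values of 0.343 and 0.327. STAT2 ranged from 1713 to 1799 normalized counts in DMSO and from 1397 to 1836 in Met, so the groups overlapped. IRF7, which amplifies interferon production, was low, at 123 ± 9.47 normalized counts in DMSO and 114 ± 19.2 in Met (SD, n = 3).

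The OAS family makes 2′-5′ linked oligoadenylates that activate RNase L when double-stranded RNA is present, and OASL is a catalytically inactive relative that enhances RIG-I signaling. OAS1, OAS2 and OAS3 lie side by side on chromosome 12, within 104.9 kb from 112906783 to 113011723, and OASL lies apart at chr12:121019111-121039242. OAS3 (ENSG00000111331) was by far the most abundant per length, at 921 normalized counts per kb of canonical transcript in DMSO, against 105 for OAS1 (ENSG00000089127), 33.1 for OASL (ENSG00000135114) and 14.0 for OAS2.

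OAS3 had 6564, 5511 and 6162 normalized counts in DMSO, 2933, 2965 and 3415 in Met, 5591, 5169 and 5642 in FK, and 2658, 2774 and 3211 in Met+FK. Every library with metformin lay below every library without it, while FK and DMSO overlapped, as did Met and Met+FK. This gave log2 fold changes of −0.97 ± 0.09 in Met and −1.08 ± 0.09 in Met+FK against DMSO (SE; limma adjusted p = 1.06e-06 and 2.75e-07), and −0.15 ± 0.09 in FK (adjusted p = 0.220). OASL showed the same order at a lower level, with 104, 109 and 112 normalized counts in DMSO, 49.1, 50.1 and 60.9 in Met, 101, 94.7 and 114 in FK, and 42.9, 46.9 and 59.5 in Met+FK. Its log2 fold change was −1.01 ± 0.16 in Met (adjusted p = 0.000113), −0.07 ± 0.16 in FK (adjusted p = 0.747) and −1.12 ± 0.16 in Met+FK (adjusted p = 4.03e-05).

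OAS1 had 166, 165 and 182 normalized counts in DMSO, 82.6, 112 and 122 in Met, 140, 119 and 148 in FK, and 67.9, 77.4 and 121 in Met+FK. The metformin libraries spread more widely than the DMSO libraries, but neither Met nor Met+FK overlapped DMSO. The log2 fold change was −0.71 ± 0.20 in Met and −0.98 ± 0.20 in Met+FK (limma adjusted p = 0.00769 and 0.000764). Without Met replicate 1 the change in Met was −0.54 (adjusted p = 0.0472), under the fold threshold. OAS2 overlapped between DMSO (58.1 to 71.6 normalized counts) and Met (40.8 to 72.0), with a log2 fold change of −0.23 ± 0.21. OAS genes are similar in sequence, so reads may have been split among them.

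**Figure D2:**
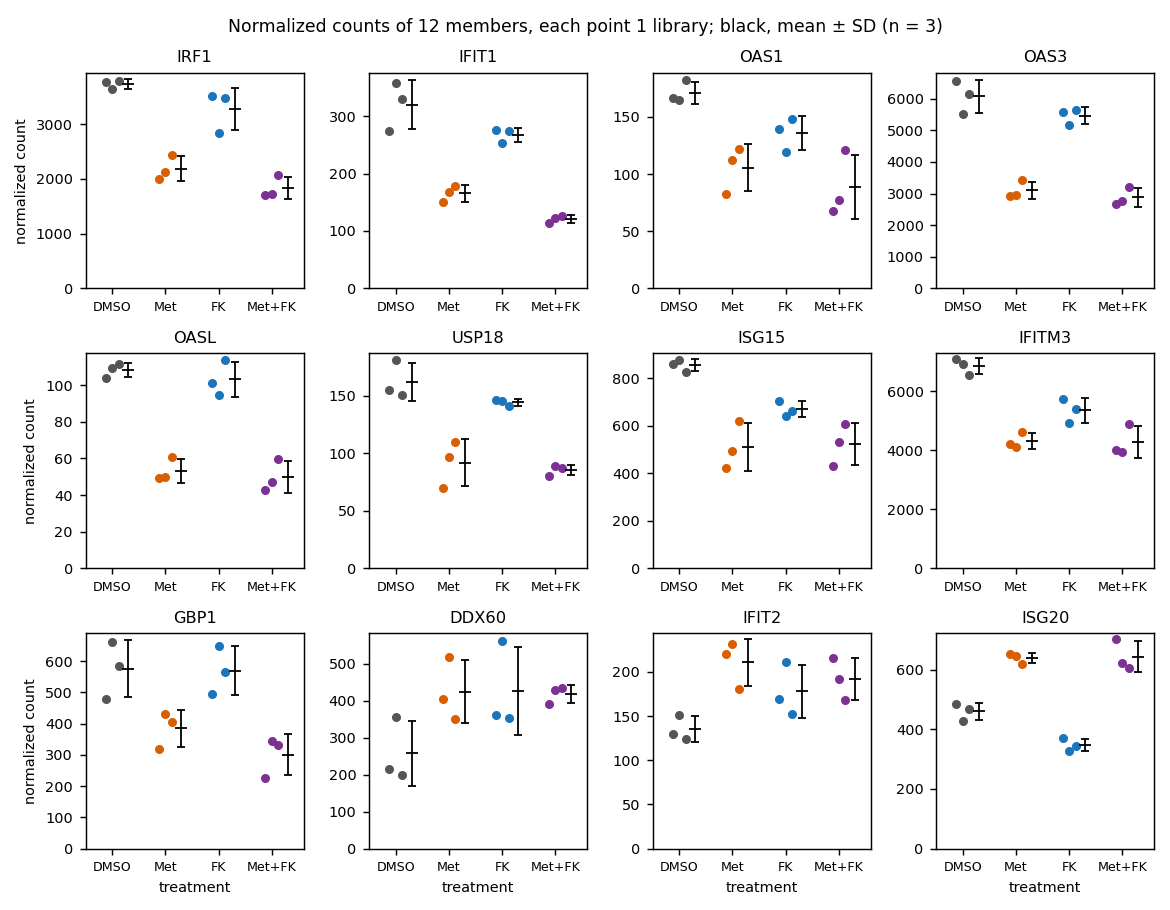
Each point is 1 library, the vertical axis is the normalized count from 0, and the black bars give the mean and SD (n = 3). IRF1, IFIT1, OAS3, OASL and USP18 sit lower in Met and Met+FK than in DMSO and FK with no overlap, ISG15 and IFITM3 lie in between in FK, and ISG20 is lowest in FK.

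The IFIT family, whose products bind viral RNA that lacks the cap methylation of host messages, did not move as one. Its 4 members lie within 137.3 kb on chromosome 10, from 89283694 to 89420997, and yet IFIT1 fell, IFIT2 rose with metformin, and IFIT3 and IFIT5 were not called against DMSO. IFIT1 (ENSG00000185745, chr10:89392546-89406487) had 275, 358 and 329 normalized counts in DMSO, 151, 167 and 179 in Met, 276, 253 and 274 in FK, and 114, 122 and 127 in Met+FK. Met libraries lay below DMSO and FK libraries, and Met+FK libraries below all others. The log2 fold change was −0.95 ± 0.12 in Met, −0.25 ± 0.12 in FK and −1.39 ± 0.12 in Met+FK against DMSO (SE; limma adjusted p = 1.77e-05, 0.124 and 3.18e-07), the last being the lowest of any measured member in these comparisons.

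IFIT2, which promotes apoptosis as well as binding RNA, had 129, 152 and 124 normalized counts in DMSO, 221, 231 and 181 in Met, 170, 211 and 153 in FK, and 215, 192 and 169 in Met+FK. All Met libraries exceeded all DMSO libraries. The log2 fold change in Met was 0.64 ± 0.15 (limma adjusted p = 0.00257), but it came to 0.58 without DMSO replicate 3 and to 0.57 without Met replicate 2, both under the fold threshold, and to 0.44 after removal of the trend on GC content and length described below. In Met+FK it was 0.50 ± 0.15 (adjusted p = 0.0110), and it passed the fold threshold without DMSO replicate 2 or Met+FK replicate 3 (both 0.59).

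IFIT3, a partner that stabilizes IFIT1 on RNA, stood at 280, 324 and 293 normalized counts in DMSO, 306, 294 and 264 in Met, 358, 408 and 381 in FK, and 218, 278 and 227 in Met+FK. FK libraries lay above all DMSO libraries, and Met+FK libraries below all of them. The log2 fold changes against DMSO were −0.05 ± 0.11, 0.35 ± 0.11 and −0.31 ± 0.11 in Met, FK and Met+FK (limma adjusted p = 0.715, 0.0434 and 0.0319), the latter 2 short of the fold threshold. IFIT5 spread from 500 to 784 normalized counts among the DMSO libraries alone, and its log2 fold changes were 0.36 ± 0.16, 0.31 ± 0.16 and 0.09 ± 0.16, none past the test. IFIT1, IFIT2 and IFIT3 lie within LIPA on the opposite strand, which averaged 2417 normalized counts and differed by 0.01 (log2) between Met and DMSO and by 0.12 between FK and DMSO. Reads shared with it or among the similar IFIT genes cannot be told apart here.

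Among the cytosolic RNA sensors DDX60 rose and none was called lower. DDX60 (ENSG00000137628, chr4:168216294-168318804, minus strand), a helicase that assists RIG-I signaling, had 216, 357 and 198 normalized counts in DMSO, 403, 519 and 351 in Met, 361, 562 and 354 in FK, and 391, 427 and 435 in Met+FK. DMSO replicate 2 and FK replicate 2 stood well above the other libraries of their groups, and DMSO overlapped both Met and FK. The log2 fold changes against DMSO were alike for the 3 treatments, at 0.75 ± 0.21, 0.74 ± 0.21 and 0.75 ± 0.21 in Met, FK and Met+FK (limma adjusted p = 0.00864, 0.0321 and 0.00867). The call for FK was lost without DMSO replicate 1 (0.64, adjusted p = 0.134), DMSO replicate 3 (0.58, adjusted p = 0.109) or FK replicate 2 (0.52, adjusted p = 0.141). After removal of the GC and length trend, the changes were 0.43, 0.36 and 0.48, all under the fold threshold.

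IFIH1, which encodes MDA5, had a log2 fold change of 0.49 ± 0.15 in Met against DMSO (limma adjusted p = 0.0127), which passed the fold threshold only when DMSO replicate 2 was left out (0.61, adjusted p = 0.00469). DDX58, which encodes RIG-I, ranged from 531 to 808 normalized counts in DMSO and from 678 to 844 in Met, with a log2 fold change of 0.23 ± 0.16. Both genes overlapped between DMSO and FK.

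ISG15 is a ubiquitin-like protein that is attached to other proteins, USP18 removes it and also blocks the interferon receptor, and TRIM25 is a ligase for ISG15 and an activator of RIG-I. ISG15 (chr1:1001138-1014540) had 860, 879 and 828 normalized counts in DMSO, 421, 495 and 621 in Met, 706, 641 and 662 in FK, and 430, 531 and 606 in Met+FK. DMSO libraries were the highest throughout, FK libraries lay below them and above every library with metformin, and no treated group overlapped DMSO. Its log2 fold change was −0.76 ± 0.14 in Met, −0.35 ± 0.14 in FK and −0.72 ± 0.14 in Met+FK (SE; limma adjusted p = 0.000361, 0.0703 and 0.000462). With the GC and length trend removed, the changes in Met and Met+FK were −0.53 and −0.54, with adjusted p-values of 0.000298 and 0.000212 but under the fold threshold.

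USP18 (ENSG00000184979, chr22:18150170-18177397) had 155, 181 and 150 normalized counts in DMSO, 70.0, 96.4 and 110 in Met, 146, 145 and 141 in FK, and 80.5, 89.0 and 86.8 in Met+FK. No metformin library reached the lowest library without metformin. Its log2 fold change was −0.83 ± 0.15 in Met and −0.91 ± 0.15 in Met+FK (limma adjusted p = 0.000469 and 0.000192), and −0.16 ± 0.15 in FK (adjusted p = 0.434). TRIM25 went the other way with metformin. It had 7057, 6318 and 7060 normalized counts in DMSO, 8840, 8726 and 9814 in Met, 5776, 5146 and 5842 in FK, and 8679, 8681 and 8957 in Met+FK. The groups with and without metformin did not overlap, and neither did FK and DMSO. Its log2 fold changes against DMSO were 0.42 ± 0.07, −0.29 ± 0.07 and 0.37 ± 0.07 in Met, FK and Met+FK (adjusted p = 0.000307, 0.0259 and 0.000843), all under the fold threshold. TRIM25 overlaps DGKE on the opposite strand, which averaged 730 normalized counts, and C17orf67 on its own strand, which averaged 136. The log2 fold changes of DGKE were 0.54 in Met and 0.49 in FK against DMSO (limma adjusted p = 0.00209 and 0.0244). Those of C17orf67 were 0.23 and −0.29 (adjusted p = 0.311 and 0.235).

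IFITM3, a membrane protein that stops viruses from fusing with endosomes, was the most abundant member per length, at 11198 normalized counts per kb in DMSO. It had 7067, 6908 and 6551 normalized counts in DMSO, 4193, 4119 and 4604 in Met, 5723, 4904 and 5401 in FK, and 3997, 3944 and 4885 in Met+FK. No treated library reached the lowest DMSO library. The log2 fold change was −0.67 ± 0.09 in Met, −0.36 ± 0.09 in FK and −0.68 ± 0.09 in Met+FK (SE; limma adjusted p = 2.74e-05, 0.0231 and 1.81e-05), and the FK value was under the fold threshold. After removal of the GC and length trend it was −0.48 in Met and −0.50 in Met+FK, also under the threshold. Its near-identical neighbors IFITM1 and IFITM2 had 26 and 25 read pairs over the 3 DMSO libraries together, so any sharing of reads among the family cannot be resolved, and BST2, or tetherin, which holds budding viruses at the surface, had 7.

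GBP1, a GTPase that coats intracellular pathogens, was called with both drugs and just missed the fold threshold with metformin alone. It had 480, 661 and 585 normalized counts in DMSO, 318, 431 and 406 in Met, 494, 649 and 565 in FK, and 225, 344 and 331 in Met+FK. Met and Met+FK libraries lay below all DMSO libraries, and FK and DMSO were interleaved. The log2 fold change against DMSO was −0.58 ± 0.17 in Met (limma adjusted p = 0.0112), −0.01 ± 0.17 in FK (adjusted p = 0.964) and −0.95 ± 0.17 in Met+FK (adjusted p = 0.000330). In Met, it passed the fold threshold without DMSO replicate 1 (−0.70), without Met replicate 2 (−0.67) and without Met replicate 3 (−0.62). GBP2 was scarce, at 33.5 ± 8.51 normalized counts in DMSO, and its log2 fold changes lay between −0.41 and −0.14.

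Among other antiviral effectors, ISG20 and SP100 were higher and SAMHD1 and ADAR lower with metformin, none past the fold threshold against DMSO. ISG20, an exonuclease, had 485, 430 and 468 normalized counts in DMSO, 652, 646 and 620 in Met, 370, 328 and 344 in FK, and 703, 623 and 606 in Met+FK. FK lay below DMSO and DMSO below both metformin groups, each without overlap. The log2 fold changes were 0.47 ± 0.09, −0.41 ± 0.09 and 0.48 ± 0.09 in Met, FK and Met+FK against DMSO (limma adjusted p = 0.00065, 0.0190 and 0.00053). MX1, a GTPase that blocks viral replication complexes, showed no such order, at 492 ± 36.1, 474 ± 62.9, 434 ± 35.2 and 476 ± 20.4 normalized counts in DMSO, Met, FK and Met+FK (SD, n = 3), with an adjusted p of 0.660 for Met.

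SAMHD1, which degrades deoxynucleotides, had log2 fold changes of −0.35 ± 0.08 in Met and −0.54 ± 0.08 in Met+FK against DMSO (limma adjusted p = 0.00285 and 8.40e-05). ADAR, which edits adenosine to inosine in double-stranded RNA, stood at −0.20 ± 0.07 and −0.19 ± 0.07 (adjusted p = 0.0301 and 0.0339). SP100, a scaffold of nuclear bodies, stood at 0.44 ± 0.10 in Met, 0.31 ± 0.10 in FK and 0.49 ± 0.10 in Met+FK (adjusted p = 0.00160, 0.0401 and 0.000647). SAMHD1 and SP100 did not overlap between DMSO and Met, whereas ADAR did, with 18139 to 21190 normalized counts in DMSO and 16520 to 18620 in Met. The adjusted p of ADAR in Met was 0.0578 with TMM scaling and 0.0599 with edgeR.

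Of the other interferon-induced proteins IFI6, IFI35, IFI44, PARP9 and PARP14, none was called against DMSO. IFI6, a mitochondrial and reticular protein that counters apoptosis, came nearest with metformin, at 486 ± 43.4 normalized counts in DMSO and 348 ± 10.9 in Met (SD, n = 3), a log2 fold change of −0.48 ± 0.11 (limma adjusted p = 0.00162). PARP9 and PARP14, both ADP-ribosyltransferase family members and thus linked to NAD+ use, lie within 202.9 kb on chromosome 3. PARP9 had a log2 fold change of −0.51 ± 0.14 in Met+FK (adjusted p = 0.00792), which passed the fold threshold without DMSO replicate 1 (−0.63), and it overlaps DTX3L on the opposite strand. PARP14 stood at 0.25 ± 0.13 in Met, 0.44 ± 0.13 in FK and 0.01 ± 0.13 in Met+FK (adjusted p = 0.113, 0.0336 and 0.958).

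The antigen presentation genes were not called in any comparison. HLA-B, a class I heavy chain, had 1668, 1365 and 1422 normalized counts in DMSO, 1596, 1377 and 1581 in Met, 1466, 1231 and 1402 in FK, and 1668, 1393 and 1529 in Met+FK. The 4 groups overlapped, and the log2 fold changes against DMSO lay between −0.12 and 0.04. B2M, the light chain shared by all class I molecules, had 2915, 3348 and 3208 normalized counts in DMSO, 3702, 3739 and 3402 in Met, 3591, 3756 and 3453 in FK, and 4063, 3770 and 3512 in Met+FK. All treated libraries exceeded all DMSO libraries, by 0.20 ± 0.08 in Met, 0.19 ± 0.08 in FK and 0.26 ± 0.08 in Met+FK on the log2 scale (limma adjusted p = 0.0497, 0.0843 and 0.0122).

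TAP1, a subunit of the peptide transporter, was at −0.02 ± 0.09 in Met, −0.29 ± 0.09 in FK and 0.02 ± 0.09 in Met+FK (log2 fold change; limma adjusted p = 0.866, 0.0384 and 0.846). TAPBP, or tapasin, which bridges the transporter and class I molecules, was at −0.30 ± 0.10, −0.15 ± 0.10 and −0.28 ± 0.10 (adjusted p = 0.0245, 0.275 and 0.0309). HLA-C was low, at 63.1 ± 9.72 normalized counts in DMSO and 44.8 ± 6.22 in Met+FK (SD, n = 3), a log2 fold change of −0.48 ± 0.19 (adjusted p = 0.0437) that passed the fold threshold without DMSO replicate 2 (−0.60) or Met+FK replicate 3 (−0.59). HLA genes are polymorphic and similar, and the deposited spans of HLA-B and HLA-C overlap, so reads of these genes may have been lost or split. The span of TAP1 overlaps that of PSMB9, which fell with metformin.

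Metformin was also measured in the presence of FK866, by comparing Met+FK with FK. The fold changes of this comparison and those of Met against DMSO come from separate libraries. All libraries shared the same fit, however, and with it the spread behind the p-values. The overlap of calls is therefore not an independent repeat. Between Met+FK and FK, 10 measured members fell (27.8%, against 9.29% of all genes) and 2 rose (5.56%, against 9.27%). The 10 were IRF1, IFIT1, OAS1, OAS3, OASL, USP18, OAS2, IFIT3, IFI44 and GBP1, and the 2 were ISG20 and TRIM25. The first 6 had also fallen in Met against DMSO, which is 75% of the 8 called there and 60% of these 10. Over all genes tested, 820 genes fell in both comparisons, 52.4% of those that fell without FK866 and 57.4% of those that fell with it. The sign was the same in both for 28 of 36 members (77.8%) and for 72.8% of all genes.

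In Met+FK against FK, the log2 fold change was −0.93 ± 0.09 for OAS3, −1.05 ± 0.16 for OASL, −1.14 ± 0.12 for IFIT1 and −0.84 ± 0.10 for IRF1 (SE, n = 3 per group), with limma adjusted p-values of 1.72e-06, 0.000103, 3.08e-06 and 1.49e-05. USP18 and GBP1 stood at −0.75 ± 0.15 and −0.94 ± 0.17 (adjusted p = 0.00127 and 0.000494). IFIT3 stood at −0.67 ± 0.11 (adjusted p = 0.000290), with every Met+FK library below every FK library. ISG20 rose by 0.89 ± 0.09 and TRIM25 by 0.65 ± 0.07 (adjusted p = 2.79e-06 and 6.71e-06), from FK levels that were themselves below DMSO.

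The remaining calls of that comparison hung on single libraries. OAS1 stood at −0.65 ± 0.20 (limma adjusted p = 0.0161), and the call was lost without FK replicate 3 (−0.58, adjusted p = 0.0580), Met+FK replicate 1 (−0.48, adjusted p = 0.0849) or Met+FK replicate 2 (−0.57, adjusted p = 0.0636). OAS2, with 76.5, 62.8 and 82.6 normalized counts in FK and 39.7, 53.5 and 46.8 in Met+FK, did not overlap and stood at −0.65 ± 0.21 (adjusted p = 0.0192). Its call was lost without FK replicate 1 (−0.63, adjusted p = 0.0522), FK replicate 3 (−0.57, adjusted p = 0.0734) or Met+FK replicate 1 (−0.54, adjusted p = 0.0795). IFI44, with 186, 293 and 176 normalized counts in FK and 153, 134 and 111 in Met+FK, stood at −0.69 ± 0.19 (adjusted p = 0.00953), at −0.45 without FK replicate 2, whose value was the highest, and at −0.57 without Met+FK replicate 3. SAMHD1, at −0.58 ± 0.08, just missed the fold threshold and passed it without FK replicate 1, Met+FK replicate 2 or Met+FK replicate 3.

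**Figure D3:**
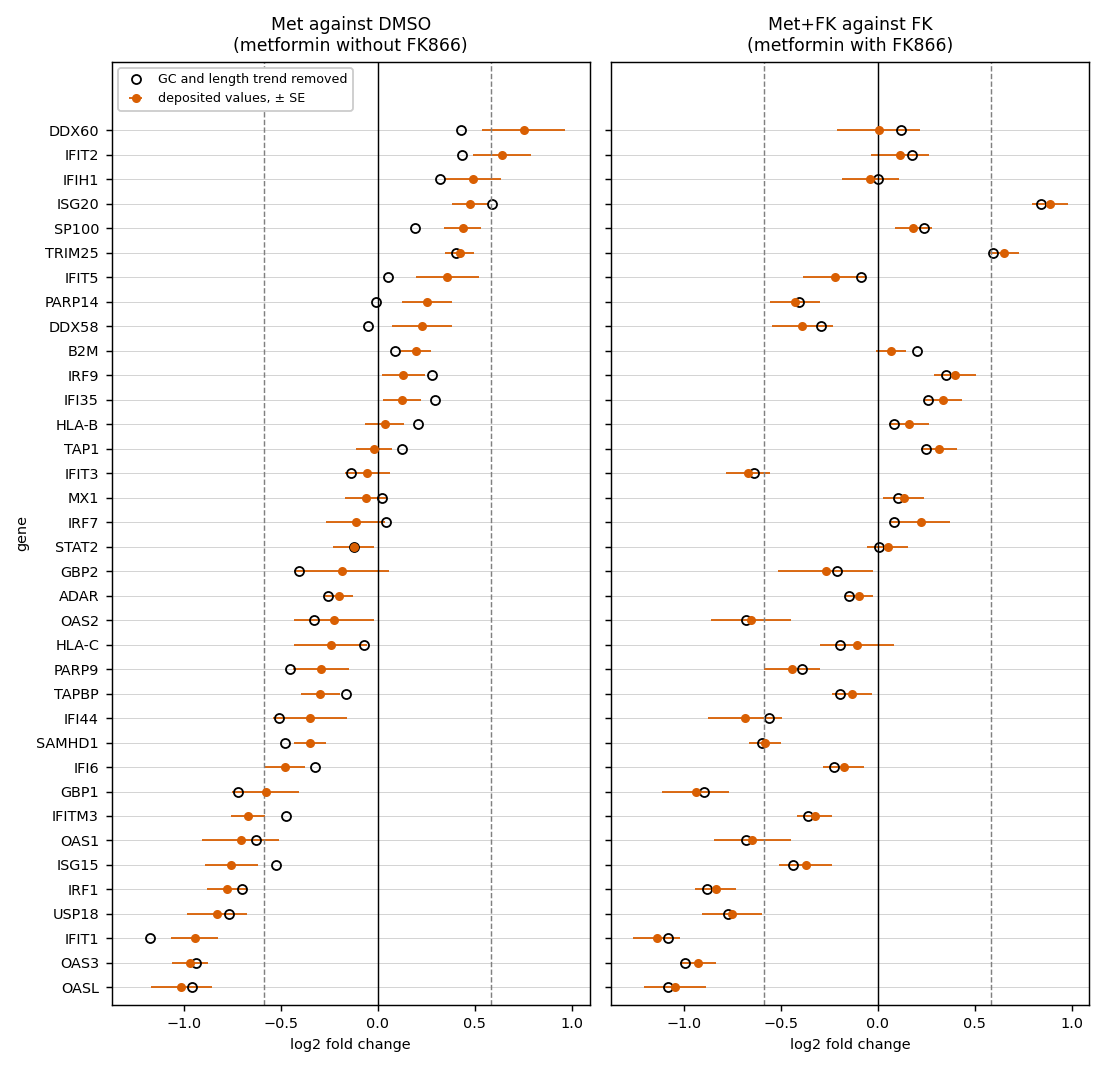
Filled points give the log2 fold change of each measured member with metformin, without FK866 at left and with it at right, with bars of ± SE (n = 3 per group), hollow points the same after removal of the GC and length trend, and dashed lines a 1.5-fold change. OASL, OAS3, IFIT1, USP18, IRF1 and OAS1 lie beyond the lower line in both panels by both measures, whereas DDX60 and IFIT2 lie between the lines at right.

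Whether FK866 added anything to metformin was asked by comparing Met+FK with Met. No measured member was called in either direction by limma, edgeR or DESeq2, beside 0.0065% of all genes called lower and 0.052% higher, and 5 members had an unadjusted p under 0.05 (13.9%, against 6.84% of all genes). These were IFIT1, IRF1, SAMHD1, IFIT3 and GBP1, all lower in Met+FK. IFIT1 differed most, by −0.45 on the log2 scale (95% interval −0.70 to −0.19), with no overlap between the 3 Met and the 3 Met+FK libraries, but its limma adjusted p was 0.307. For OAS3 the interval was −0.30 to 0.09, for ISG15 −0.26 to 0.32 and for HLA-B −0.21 to 0.23. For these 3 genes, an added change inside the interval could not be told from none. By the adjusted p alone, no member was called either (0.0911% of all genes were higher and 0.0065% lower). With the replicate block and the GC and length trend removed, GBP1, PARP14 and IRF1 were lower by the adjusted p, though not by 1.5-fold (8.33% of members, against 1.38% of all genes). Counted without overlap, 3 members were lower in Met+FK than in Met (5.56% of all genes were) and none higher (7.88% of all genes were).

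The interaction is the change with FK866 among cells given metformin less the change with FK866 among cells given none, and tests whether the drugs acted on a gene independently on the log2 scale. In the fit without a block, no member passed it (adjusted p at least 0.110, with 0.0065% of all genes called higher and 0.052% lower), and 11 members had an unadjusted p under 0.05 (30.6%, against 30.5% of all genes). With the replicate number as a block, 13 members passed (36.1%, against 32% of all genes), 9 with a negative interaction (IFIT2, IFIT3, IFIT5, DDX58, DDX60, IFIH1, SP100, PARP14 and GBP1) and 4 with a positive one (TAP1, IFITM3, ISG20 and TRIM25). Same-numbered libraries deviated together for DMSO and FK and for Met and Met+FK, which is why a value with the block is given. The block, however, fits a shared shift per replicate number across all treatments, not for these pairs alone. Between groups with and without metformin, deviations of replicate 1 correlated across genes only at 0.0129 (DMSO, Met) to 0.051 (DMSO, Met+FK). There replicate 2 gave 0.159 to 0.403, and replicate 3 gave 0.0186 to 0.3. The 13 calls thus rest on a pairing across metformin that replicate 1 did not show. With DESeq2, and with the block after removal of the GC and length trend, only IFIT3 and PARP14 passed (5.56% of members, against 4.52% of all genes with DESeq2 and 6.97% with that block). Without FK replicate 1, the unpaired fit called 4 members, namely IFIT3 (−0.66), PARP14 (−0.81), DDX58 (−0.74) and ISG20 (0.46), which is 11.1% against 12% of all genes. The members thus passed the interaction about as often as all genes did in each of these fits.

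For IFIT3, FK866 went with a log2 fold change of 0.35 without metformin and of −0.26 with it, so the interaction was −0.61 ± 0.16. For PARP14 these values were 0.44 and −0.24, and the interaction was −0.68 ± 0.18. For OAS3, IRF1, OASL and USP18, by contrast, the interaction lay between −0.06 and 0.08, with unadjusted p-values from 0.694 to 0.888.

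With FK866 alone, the members past the adjusted p were split by the GC content of their transcripts. By the adjusted p alone, 4 members were higher in FK (11.3% of all genes were), namely SP100, PARP14, DDX60 and IFIT3, with GC contents from 38.9% to 44.4%. Another 5 were lower (9.84% of all genes were), namely TAP1, IFITM3, ISG20, IFI35 and TRIM25, with GC contents from 51.1% to 58.8%. No member passed the adjusted p in FK with only the libraries compared, or without DMSO replicate 1, DMSO replicate 3 or FK replicate 2. Over all genes, these fits gave at most 261 higher and 119 lower, instead of 1738 and 1513. The 36 measured members span 37.6% to 66.6%, with a median of 50.4%, near the 48.5% of all genes tested. Libraries themselves differed in how counts followed GC content, with slopes per 10 percentage points of 0.0429 to 0.196 log2 units in DMSO, −0.245 to 0.00266 in FK, −0.139 to 0.0801 in Met and −0.0481 to 0.0631 in Met+FK. Every FK slope lay below every DMSO slope. A technical trend of the libraries and a drug effect that follows GC content thus cannot be told apart, and removing the trend takes away both.

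The trend of each library on GC content and on the log of transcript length was then removed. After that, no member was higher in FK by the adjusted p (4.25% of all genes were). Lower were 3 (8.33%, against 6.83% of all genes), IFIT1, ISG20 and TRIM25, none by 1.5-fold. This changed with the replicate number as a block, which was fitted over all 12 libraries and not for DMSO and FK alone. With the replicate block added, PARP14, DDX60 and IFIT3 were higher (8.33% of members, against 7.66% of all genes) and IFIT1, ISG20, TRIM25, ADAR and PARP9 lower (13.9%, against 12.8%), again none by 1.5-fold. In the deposited values the block gave 9 higher (25%, against 23.3% of all genes) and 7 lower (19.4%, against 21.3%) by the adjusted p. Removal of the trend left 6 of the 8 members that fell with metformin called, IRF1 (−0.70), IFIT1 (−1.17), OAS1 (−0.63), OAS3 (−0.94), OASL (−0.96) and USP18 (−0.77), and it added GBP1 (−0.72). On the higher side ISG20 took the place of DDX60 and IFIT2. In Met+FK against DMSO it took ISG15, IFITM3 and DDX60 from the calls and added PARP9, SAMHD1, GBP2 and ISG20.

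**Figure D4:**
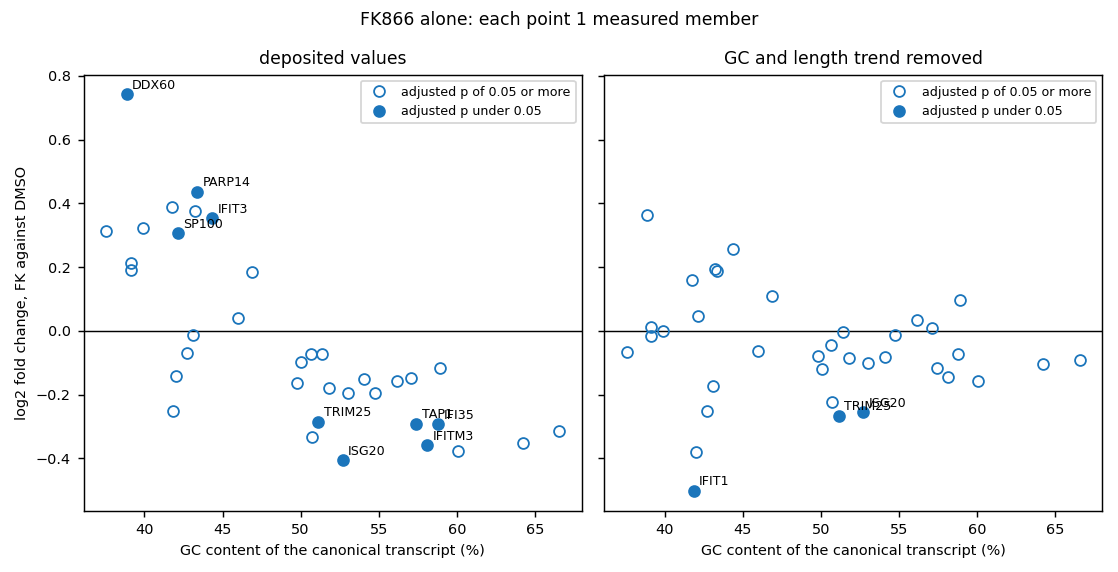
Each point is a measured member, placed by the GC content of its canonical transcript and its log2 fold change in FK against DMSO, in the deposited values at left and after removal of the GC and length trend at right, filled where limma's adjusted p is under 0.05. At left the members below 45% GC with a filled point lie above 0 and those over 50% below 0, and at right, in the fit without the block, 3 filled points remain, all below 0.

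The other steps of the pathway were looked up from lists, also chosen with earlier results of these data known. Of 21 interferon genes, 18 had 0 read pairs in every library and none was measured. IFNB1, which encodes interferon beta, had 0 read pairs in all DMSO and FK libraries, 3, 3 and 2 in the Met and 1, 3 and 0 in the Met+FK libraries. These counts are at the floor of 3 read pairs, and no fold change was computed.

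Receptors, kinases and STATs were all measured, and 1 of 12 rose in Met against DMSO (8.33%, against 12.8% of all genes) and none fell (10.2% of all genes did). The gene that rose was JAK2, a kinase of the interferon gamma receptor, from 370 ± 67.7 to 631 ± 53.6 normalized counts (SD, n = 3), a log2 fold change of 0.78 ± 0.17 (limma adjusted p = 0.00120). TYK2 and STAT3 stood at −0.54 ± 0.09 and −0.50 ± 0.08, and JAK1 at 0.41 ± 0.07, each past the adjusted p but not the fold threshold. The receptor chains IFNAR1 and IFNAR2 stood at 0.12 ± 0.10 and −0.08 ± 0.07.

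Of 15 measured genes that sense nucleic acid or relay the signal to interferon, 2 rose and 2 fell in Met, each 13.3%, near the 12.8% and 10.2% of all genes. IKBKE, a kinase of IRF3 and IRF7, went from 387, 378 and 373 to 182, 168 and 218 normalized counts, a log2 fold change of −1.01 ± 0.13 (limma adjusted p = 2.22e-05), and TMEM173, which encodes STING, stood at −0.96 ± 0.21 (adjusted p = 0.00157). IRF5 and the DNA sensor IFI16 rose by 0.88 ± 0.13 and 0.72 ± 0.12. Among 7 feedback inhibitors 2 fell in Met (28.6%, against 10.2% of all genes), SOCS3 (log2 fold change −1.10 ± 0.10) and SOCS1 (−0.66 ± 0.18) (adjusted p = 5.35e-07 and 0.00748).

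Among 39 other measured ISGs that are not members, 5 fell in Met (12.8%, near the 10.2% of all genes) and 1 rose (2.56%, against 12.8%). PARP10 and UBA7, the latter being the enzyme that activates ISG15, had log2 fold changes of −0.80 ± 0.17 and −1.12 ± 0.31. The other 3, chosen to be named after their values were seen, were IFI30 (−0.74 ± 0.11), GBP4 (−0.63 ± 0.13) and LY6E (−0.63 ± 0.13). UBA7 ranged widely in Met, from 23.0 to 74.1 normalized counts. SLFN5, which is induced by interferon in other cells, went the other way, from 664, 739 and 668 normalized counts in DMSO to 3397, 3419 and 3274 in Met and 1143, 1464 and 1014 in FK. No treated library overlapped DMSO, and the log2 fold changes were 2.28 ± 0.11 and 0.79 ± 0.11 (limma adjusted p = 1.72e-09 and 0.00103). In Met+FK against DMSO, 8 of the 39 ISGs fell (20.5%, against 11.3% of all genes) and 1 rose (2.56%, against 13.7%). By the adjusted p alone, 15 of the 39 were lower in Met (25.9% of all genes were) and 2 higher (24.9%).

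Of 22 other measured antigen presentation genes, 4 fell in Met (18.2%, against 10.2% of all genes) and none rose (12.8% of all genes did). These were the 3 catalytic subunits of the immunoproteasome, PSMB8 (−0.61 ± 0.10), PSMB9 (−0.82 ± 0.10) and PSMB10 (−0.70 ± 0.10), and the chaperone CALR (−0.92 ± 0.08), with limma adjusted p-values of 0.000201, 1.17e-05, 7.12e-05 and 3.41e-07. PSMB9 had 1196, 1195 and 1181 normalized counts in DMSO and 624, 643 and 755 in Met, with no overlap. PSMB8 was chosen to be named after its values were seen.

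To see what the members share before their start sites, the 250 bases before the RefSeq start were searched on both strands. RefSeq promoters (GRCh38.p14) were matched for 30 of the 36 measured members. The ISRE core was found before 16 of them (53.3%), against 3.02% of 35116 promoters of the same length and 2.45% of the promoters of genes tested. The GAS core TTCNNNGAA was found before 6 (20%), namely IRF1, IRF9, DDX60, OAS1, IFI35 and PARP14, against 6.57% of all promoters and 5.42% of those of genes tested. DDX60 and PARP14 hold both. A match says only that these letters occur there.

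Whether the ISRE core separates members by direction could not be judged, since only 1 of the 2 that rose in Met had a promoter sequence. Of the 8 members that fell in Met against DMSO, 6 had a promoter sequence and 4 of these held the ISRE core, IFIT1, OAS3, IFITM3 and ISG15, as printed above. DDX60, which rose, holds it at 2 places. Of 23 members with a promoter that were not called, 11 hold it. IRF1 and OAS1, which fell, have a GAS core and no ISRE core in this window.

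**Figure D5:**
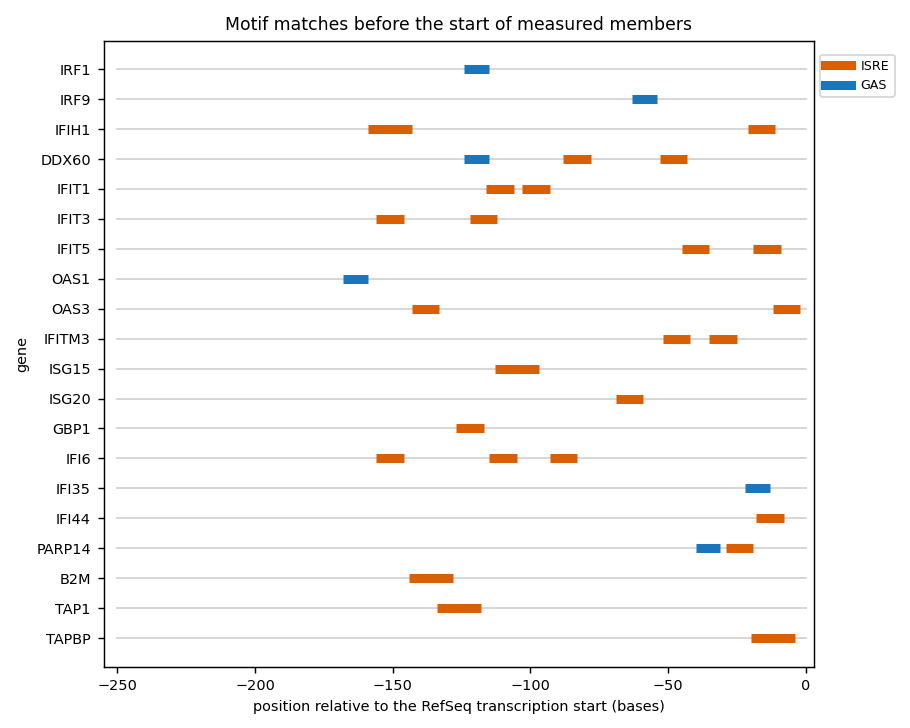
Each line is the 250 bases before the RefSeq start of a measured member, with matches to the ISRE core in orange and to the GAS core in blue, on either strand, for the 20 of 30 members with at least 1 match. The match farthest from the start is that of OAS1, at position −168, and IRF1, IRF9, OAS1 and IFI35 have only the GAS core.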

How the data were processed

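RNA was measured in 12 libraries of KP4 cells. The authors used cutadapt for trimming, STAR for alignment (hg38), featureCounts for read pairs per gene, and DESeq2 for normalization. Neither the gene models nor the strand option of featureCounts is given in the sources used here, so values of overlapping genes and of similar copies are uncertain. The deposited values are a signal, gene counts divided by a size factor per library (0.867 to 1.21). Dividing by the smallest step gave whole reads for 100% of values within 0.01, and these counts were used for edgeR and DESeq2. Positions are those of the deposited table, whose starts are 0-based (89.1% of 36366 genes found in GENCODE 44 start 1 base later there), given here 1-based.

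Groups were compared by limma-trend (version 3.58.1, in R 4.3.3) using log2(normalized count + 1) on the 15376 genes whose mean reached 10, all 12 libraries in 1 fit. Fold changes on this scale understate changes of low genes. Calls needed an adjusted p under 0.05 and a fold change over 1.5, and the interaction the adjusted p alone. Alternatives were pseudocounts of 0.1 and 10, other filters on low values, scaling to the same total, TMM, only the libraries compared, a replicate block, edgeR 4.0.16, DESeq2 1.42.0, a loess trend (span 0.3) on GC content and log length of Ensembl canonical transcripts (found for 99.7% of genes tested) removed, the adjusted p alone, and each library left out. The test was run on simulated data that held neither pairing of libraries nor a trend on GC content, so that run does not cover either. Every measured member is named, with values per library for those called in any comparison, and other genes only from lists of the pathway, up to 3 per list and comparison plus receptors and signaling genes. The members and lists were chosen with earlier results of these data known.

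Same-numbered libraries were checked for pairing by the correlation, across genes, of their deviations from the group means. DMSO with FK gave 0.252, 0.420 and 0.219, and Met with Met+FK gave 0.171, 0.200 and 0.226, all over 0.1, so these pairs were taken to match, a reading that rests on the data and not on the labels. With the GC and length trend removed, DMSO with FK stayed over 0.1, but Met with Met+FK gave 0.159, 0.0964 and 0.0738. In the deposited values, the correlation was under 0.1 for at least 1 number in every other pair of treatments. The replicate block nevertheless treated same-numbered libraries of all treatments as matched. Libraries of a group differed beyond sampling noise (chi-square over its degrees of freedom, 5.69 to 51.5). Python 3.11.15 and matplotlib 3.10.9 were used for tables and figures. Values of some genes of the lists are not reported here.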

Additional observations from a re-analysis of the deposited data

How the results depend on the processing

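Of 33 calls of a member in a comparison, 27 held in all 6 fits that left out 1 of the libraries compared. Over all alternatives, 789 of 825 values kept their direction and their side of the threshold, 36 kept the direction only, and 0 reversed. Part of these values could hardly change, so the ratio overstates the stability. By the adjusted p alone, all 33 calls hold by construction. The replicate block, and leaving out a library outside the comparison, leave the fold change itself as it was. With libraries scaled to the same total, the median of all genes shifted to 0.13 (log2) in Met against DMSO, and called genes split into 2835 higher and 1025 lower, instead of 1964 and 1566. There 4 members rose (IFIH1 and ISG20 joined) and 7 fell (IFITM3 was lost), and 2 rose in Met+FK against DMSO. With the GC and length trend removed, 1 member rose in Met and 0 in FK against DMSO, with or without the replicate block. DDX60 in FK was also lost when all genes with any value above 0 were tested (0 members) and with only the libraries compared (0). By the adjusted p alone, 7 members were higher and 13 lower in Met, 4 and 5 in FK, 6 and 17 in Met+FK, each against DMSO, and 5 higher and 15 lower in Met+FK against FK. Those of FK were all lost with only the libraries compared, and without DMSO replicate 1, DMSO replicate 3 or FK replicate 2. Leaving out 1 library at a time, between 1 and 3 members rose in Met, between 0 and 1 in FK and between 1 and 2 in Met+FK. For the interaction, the replicate block, shared by all treatments, called 13 members instead of 0 (and 4914 of all genes instead of 9). DESeq2 called 2 (695), the block with the GC and length trend removed 2 (1068). Leaving out 1 library called between 0 and 4 (4 without FK replicate 1, with 1845 of all genes). The block changed no other call of a member by the adjusted p and the fold together. On the recovered whole reads, edgeR called 2142 of all genes higher and 1382 lower in Met, and 526 and 90 in FK, against DMSO, and every one of the 33 calls of a member held with edgeR and with DESeq2. OAS2 in Met+FK against FK was also lost with a pseudocount of 10. The cause was not tested in any of these. Beyond these, 3 libraries per group limit the precision.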
